A study of Mus musculus with 8 samples.

Results

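The genes described are 8 CC chemokines, Ccl24, Ccl17, Ccl22, Ccl3, Ccl4, Ccl5, Ccl6 and Ccl9, taken by name from a table of 22597 genes measured in macrophages of mouse lung. All 8 were present once in the table and all 8 passed the filter on low counts. The mice were C57BL/6 females. The recipients, named IMDTR and also Cx3cr1-DTR in the labels, carried CD45.1/CD45.2 and the diphtheria toxin receptor (DTR), so that toxin kills their cells in which it is expressed. They were irradiated at 18 weeks of age and given bone marrow of congenic donors, although the labels also list an age of 12 to 16 weeks. Both kinds of donor carried floxed Tgfbr2, the gene of the type 2 TGF-β receptor. In the 4 WT libraries (WT1 to WT4) the marrow was Tgfbr2fl/fl without Cre, and in the 4 Tgfbr2_KO libraries (KO1 to KO4) it was Lyz2Cre Tgfbr2fl/fl, with Cre driven by Lyz2, a gene of monocytes, macrophages and neutrophils. All recipients received 50 ng of diphtheria toxin 1 month after transplantation, and lung interstitial macrophages, the macrophages of the tissue between airspaces and vessels, were sorted 10 days later. Cre was present only in the Tgfbr2_KO donors, so loss of Tgfbr2 and presence of Cre in Lyz2 cannot be told apart. Per the series title, the study asked how TGF-β1 from endothelium bears on these macrophages. The labels do not say that each library came from its own mouse, nor whether the sort kept donor cells only, so p-values measure the spread between these libraries.

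Chemokines are small secreted proteins that draw cells carrying the matching receptor, and those of the CC family share a pair of adjacent cysteines. Ccl24 (eotaxin-2) acts on Ccr3, the receptor of eosinophils. Ccl17 and Ccl22 are the ligands of Ccr4, which T cells of type 2 responses and regulatory T cells carry. Ccl3 and Ccl4 (the macrophage inflammatory proteins 1α and 1β) and Ccl5 (RANTES) draw monocytes and T cells, and Ccl3 and Ccl5 act on Ccr1. Ccl6 and Ccl9 are rodent CC chemokines with an extended start of the protein that act on Ccr1. Macrophages are a source of many CC chemokines, and Ccl24, Ccl17 and Ccl22 are textbook products of macrophages exposed to interleukin-4.

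The coding sequence that defines the family is shown first for 7 members, because it is what the transcripts share. Each line gives 24 bases of the GENCODE M21 coding sequence, 5′ to 3′ on the coding strand, with the pair of cysteine codons in capitals and the GRCm38 coordinates of the 24 bases.
Ccl24, chr5:135572656-135572679: ccctcatctTGCTGCacgtccttt
Ccl17, chr8:94811203-94811226: ggccgagagTGCTGCctggattac
Ccl22, chr8:94746925-94746948: gacagtatcTGCTGCcaggactac
Ccl4, chr11:83663473-83663496: cccacttccTGCTGTttctcttac
Ccl5, chr11:83529233-83529256: accactcccTGCTGCtttgcctac
Ccl6, chr11:83589377-83589400: tcttcagacTGCTGCttctcttat
Ccl9, chr11:83575917-83575940: tcttcagatTGCTGCctgtcctat
The pair was encoded in exon 2 of 3 in Ccl24, Ccl17, Ccl22, Ccl3, Ccl4 and Ccl5, and in exon 3 of 4 in Ccl6 and Ccl9. Over the 28 pairs of members the median identity of the aligned coding sequences was 48.6%. The most alike were Ccl3 and Ccl4 (68.1%) and Ccl6 and Ccl9 (64.6%). The longest run of bases shared by any pair of transcripts was 25, between Ccl6 and Ccl9, so no member had a near-identical copy among the others.

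The members fell into 3 places of the genome. Ccl24 (ENSMUSG00000004814) lay alone on chromosome 5, at chr5:135569937-135573049 on the minus strand. Ccl22 and Ccl17 were neighbours on the plus strand of chromosome 8, at chr8:94745590-94751699 and chr8:94810453-94812036, 58.8 kb apart. The other 5 lay within 138.9 kb of chromosome 11. In order of position these were Ccl5 (chr11:83525778-83530518, minus), Ccl9 (chr11:83572919-83578636, minus), Ccl6 (chr11:83587882-83593087, minus), Ccl3 (chr11:83647844-83649355, minus) and Ccl4 (chr11:83662584-83664683, plus). Gaps were 9.2 kb between Ccl9 and Ccl6 and 13.2 kb between Ccl3 and Ccl4. The gene E230016K23Rik overlaps Ccl6 on the opposite strand. No source used here gives the strand setting of the counting, so the values of Ccl6 are uncertain to that extent.

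Libraries held 15597300 to 37654100 estimated counts over all genes, and the lowest count of any member in any library was 83, for Ccl24 in WT1. The libraries WT1, WT2 and KO1 stood apart from the other 5 by markers of other lung cells and are called lung-rich here. The summed level of 10 epithelial markers was 3192 to 5697 CPM (counts scaled to library size) in these 3 and 199.9 to 311.2 CPM in the other 5. For 10 endothelial markers it was 2564 to 5008 against 210 to 279.9 CPM, and for 10 fibroblast markers 849.7 to 1396 against 109.6 to 146.6 CPM, and no marker of the 3 lists was at 0 in every library. The sum of 11 interstitial macrophage markers, led by Apoe, C1qa and Csf1r, was 10010 CPM in KO1, 14660 in WT1, 15960 in WT2 and 22020 to 24370 in the other 5. Each of the 8 members is therefore given for all 8 libraries, within the lung-rich 3 and within the other 5 (WT3, WT4, KO2, KO3 and KO4). KO1 is the single Tgfbr2_KO library of the lung-rich 3. Other genes and lists are given in some of these settings only. Tgfbr2 was 424 to 576 CPM in the Tgfbr2_KO and 474 to 548 CPM in the WT libraries (log2 difference -0.03, edgeR adjusted p = 1). That total over the whole gene is a weak check, since transcripts that lack a deleted exon are still counted. Lyz2, which carries the Cre, was 3440 to 5611 CPM in Tgfbr2_KO and 7285 to 13190 CPM in WT (log2 -1.06, edgeR adjusted p = 0.191, and -1.22 with 1.47e-04 with the library set as a term).

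Ccl24 was higher in each Tgfbr2_KO library than in every WT library, by 8.45-fold between the group means of 41.4 ± 17.6 CPM and 4.90 ± 0.95 CPM (SD, n = 4 each). It was the single member that passed the test over all 8 libraries, where 0.298% of 12750 genes passed, 0.196% higher and 0.102% lower. No other member passed and 0 of 8 fell, and at an unadjusted p under 0.05 edgeR and DESeq2 each had 3 of 8 higher (Ccl24, Ccl3 and Ccl4) and 0 lower. The share of all genes under that unadjusted threshold is not given here, so these counts are not compared with a background. The same holds for such counts of the gene lists below. With the library set (lung-rich or other) as a term in the fit, Ccl24 rose and Ccl17 fell, against a background of 16.5% of all genes (8.59% higher and 7.89% lower). Within the other 5 libraries all 8 members passed, 5 higher (Ccl24, Ccl3, Ccl4, Ccl9 and Ccl22) and 3 lower (Ccl17, Ccl5 and Ccl6). In those 5 libraries 38.5% of all genes passed (19.7% higher and 18.7% lower). WT3 and WT4 were very close to each other there, as were KO2 to KO4, so p-values in these 5 rest on a small spread. The labels do not say that they came from separate mice. Within the lung-rich 3, where KO1 is the single Tgfbr2_KO library, Ccl24 rose and Ccl22 fell, and 5.11% of all genes passed (3.16% higher and 1.95% lower). The share of all genes that passed in each fit is also the background for counts of the gene lists below. In bulk RNA of sorted cells, fewer cells of a type and less RNA per cell cannot be told apart.

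**Figure D1:**
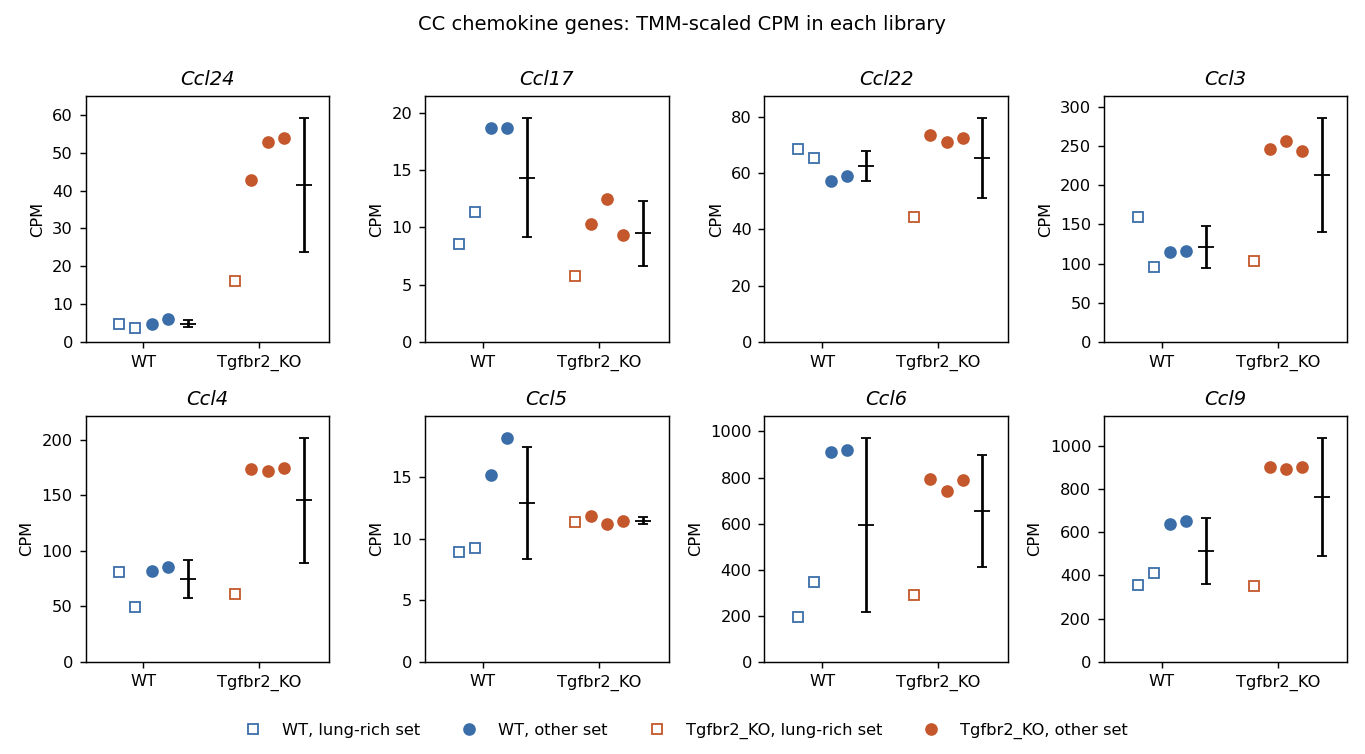
TMM-scaled CPM (vertical axes, from 0) of the 8 genes in each library, WT in blue and Tgfbr2_KO in orange, with open squares for the lung-rich libraries WT1, WT2 and KO1, filled circles for the other 5, and bars for the mean ± SD of 4 libraries. Ccl24 is the gene with all 4 Tgfbr2_KO points above all WT points, and KO1 (open orange square) lies below the other Tgfbr2_KO libraries for every gene except Ccl5, where it lies among them.

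**Figure D2:**
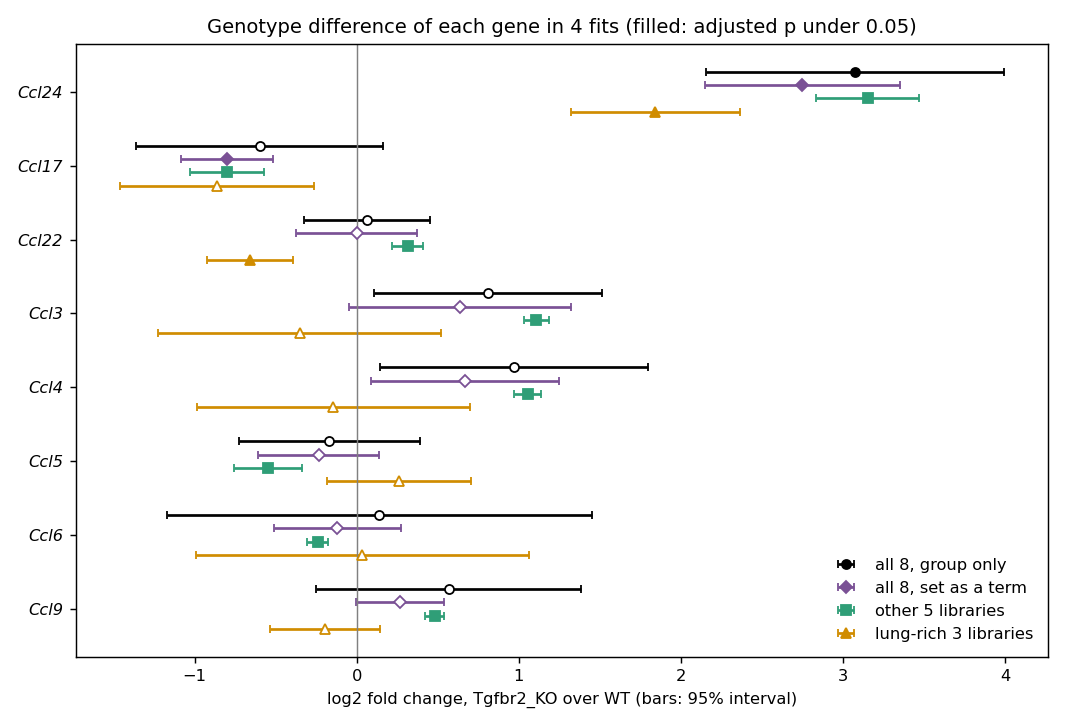
Log2 fold change of Tgfbr2_KO over WT (horizontal axis) for each gene in 4 edgeR fits, with bars for the 95% interval and filled symbols for an adjusted p under 0.05. Ccl24 is filled in all 4 fits, between 1.84 and 3.15, and Ccl3, Ccl4, Ccl9 and Ccl22 lie above 0 in the other 5 libraries and below 0 in the lung-rich 3.

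Ccl24, the eotaxin, was 4.91, 3.78, 4.82 and 6.10 CPM in WT1 to WT4 and 16.2, 42.8, 52.9 and 53.8 CPM in KO1 to KO4. The WT libraries were all low whether lung-rich or not. KO1 was the lowest of the Tgfbr2_KO libraries, at 32.4% of the mean of KO2 to KO4, and still above every WT library. Over all 12750 genes tested, 6.9% had groups without overlap, 4.19% with Tgfbr2_KO higher and 2.71% with it lower. Fitted by group alone, Ccl24 rose by 3.08 on the log2 scale (SE 0.39, edgeR adjusted p = 0.0351) and ranked 10 of 12750 genes by rise. Fitted with the set as a term, the rise was 2.75 (SE 0.26, edgeR adjusted p = 8.32e-04).

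The Ccl24 difference was present within each set of libraries and was smaller in the lung-rich one. In the other 5 libraries the means were 49.9 ± 6.11 CPM (n = 3) and 5.46 ± 0.91 CPM (n = 2), a 9.13-fold difference (log2 3.15, SE 0.14, edgeR adjusted p = 6.45e-08). Among the lung-rich 3 it was 16.2 CPM in KO1 against 4.91 and 3.78 CPM, 3.72-fold (log2 1.84, SE 0.22, edgeR adjusted p = 0.0165), where the lone Tgfbr2_KO library is assumed to vary as the WT ones do. The difference between these effects passed its own test (log2 -1.24 for lung-rich minus other, SE 0.26, edgeR adjusted p = 0.00952), as it did for 18.9% of all genes. Over all 8 libraries, leaving out any 1 library other than KO1 gave a log2 fold change of 2.93 to 3.21 with an edgeR adjusted p of 0.106 to 0.241, and leaving out KO1 gave 3.34 with 3.77e-04. Without KO1 no Tgfbr2_KO library is lung-rich while WT1 and WT2 are, so that fit mixes genotype with library set. WT3 and WT4, and KO2 to KO4, were very close to each other, so a fit with WT3 and WT4 summed, KO4 left out and the set as a term was also made, and it gave 2.51 (edgeR adjusted p = 0.033), with 1 member of 8 and 1.37% of all genes past the threshold (0.519% higher and 0.853% lower). Markers of eosinophils, basophils and mast cells summed to 0.956 to 2.28 CPM in WT and 1.48 to 2.79 CPM in Tgfbr2_KO over 9 genes. Epx, which encodes the eosinophil peroxidase, was at 0 in 7 libraries and at 0.11 CPM in KO4. Of the 9 markers of alveolar macrophages, another macrophage of the lung, Car4 was 54.9 to 107.0 CPM in the lung-rich libraries and 5.08 to 11.9 CPM in the other 5, and was the 1 marker higher in each lung-rich library. Car4 is also known from lung capillary endothelium. The remaining 8 summed to 9.29 to 16.2 CPM in the lung-rich libraries, 31.8 to 37.0 in WT3 and WT4 and 10.4 to 16.4 in KO2 to KO4. Of the 6 alveolar markers tested with the set as a term, Fabp4 and Marco rose and Plet1 and Siglecf fell. The 9 monocyte markers summed to 1618 to 2297 CPM in WT and 1640 to 2620 CPM in Tgfbr2_KO, led by Fn1 (597 to 1929 CPM) and Ace (109 to 1096 CPM). Of the monocyte markers Ace and Ly6c2 rose with the set as a term, Ly6c2 rose and Vcan fell in the other 5 libraries, and Ly6c2, Plac8 and Treml4 rose in the lung-rich 3, none falling there (5 of 9 higher at an unadjusted p under 0.05). The part of alveolar macrophages and monocytes in the Ccl24 result was not tested.

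Of the Ccr4 ligands, Ccl17 was lower and Ccl22 had no common direction. Ccl17 was 8.52, 11.4, 18.7 and 18.7 CPM in WT1 to WT4 and 5.75, 10.3, 12.5 and 9.29 CPM in KO1 to KO4. The groups overlapped over all 8 libraries, since the lung-rich WT1 and WT2 lay in or near the range of KO2 to KO4, and did not overlap within either set. Among the other 5 libraries 59.1% of all genes had groups without overlap, 30.2% with Tgfbr2_KO lower and 29.0% with it higher. The log2 difference was -0.60 (SE 0.33, edgeR adjusted p = 0.652) over all 8 and -0.80 (SE 0.12, edgeR adjusted p = 0.00489) with the set as a term. It was -0.80 in the other 5 libraries (edgeR adjusted p = 7.28e-06) and -0.86 in the lung-rich 3 (edgeR adjusted p = 0.0976). The difference between these effects was 0.00 (95% interval -0.78 to 0.78). With WT3 and WT4 summed and KO4 left out, Ccl17 gave -0.78 and missed the threshold (edgeR adjusted p = 0.078).

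Ccl22 was 68.6, 65.2, 57.3 and 59.0 CPM in WT1 to WT4 and 44.3, 73.5, 70.8 and 72.5 CPM in KO1 to KO4. KO1 was the lowest library of all and KO2 to KO4 were the highest. Ccl22 rose by 0.31 on the log2 scale in the other 5 libraries (SE 0.05, edgeR adjusted p = 2.27e-05), and in the lung-rich 3 it fell by 0.66 (SE 0.11, edgeR adjusted p = 0.0278). That fall is 1 library, KO1, against WT1 and WT2, and its p assumes that the lone Tgfbr2_KO library varies as the WT ones do. The effects differed by -0.91 (SE 0.08, edgeR adjusted p = 6.48e-05). Over all 8 libraries the log2 difference was 0.06 (interval -0.33 to 0.45). With WT3 and WT4 summed, KO4 left out and the set as a term it was -0.17 (edgeR adjusted p = 0.715). Relative to Ccl17, per kb of transcript, Ccl22 was 0.712 and 0.733 in WT3 and WT4 and 1.32 to 1.81 in KO2 to KO4, and in the lung-rich libraries it was 1.87, 1.33 and 1.79.

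Dendritic cells are a known source of both Ccr4 ligands. Their 9 markers, led by Dpp4, Ccr7 and Fscn1, summed to 102.5 to 103.6 CPM in WT3 and WT4, 140.6 to 146.5 in KO2 to KO4, 146.6 and 169.1 in WT2 and WT1 and 215.2 in KO1. None was at 0 in every library. With the set as a term 1 of the 9 rose (Zbtb46) and none fell. Within the other 5, Batf3, Ccr7, Cd209a and Zbtb46 rose and Clec9a fell. The sum moved in the same direction as Ccl22 and opposite to Ccl17 in the other 5 libraries. In the lung-rich 3 it moved opposite to both, with KO1 highest for the sum and lowest for Ccl22 (44.3 CPM) and Ccl17 (5.75 CPM). The part of dendritic cells in either result was not tested.

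The 250 bases before the RefSeq starts of Ccl17 and Ccl22 (GRCm38.p6) are shown because the genes are neighbours that moved apart in the other 5 libraries. Capitals mark the patterns TTCNNNNGAA and TTCNNNGAA, the forms that STAT6 and other STAT proteins are known to bind, searched on both strands.
Ccl17, chr8:94810203-94810452 (+ strand): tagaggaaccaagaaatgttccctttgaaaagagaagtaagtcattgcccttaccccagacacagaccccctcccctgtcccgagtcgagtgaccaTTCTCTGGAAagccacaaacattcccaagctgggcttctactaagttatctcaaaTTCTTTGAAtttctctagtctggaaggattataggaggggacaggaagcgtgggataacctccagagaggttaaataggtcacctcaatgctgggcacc
Ccl22, chr8:94745434-94745683 (+ strand): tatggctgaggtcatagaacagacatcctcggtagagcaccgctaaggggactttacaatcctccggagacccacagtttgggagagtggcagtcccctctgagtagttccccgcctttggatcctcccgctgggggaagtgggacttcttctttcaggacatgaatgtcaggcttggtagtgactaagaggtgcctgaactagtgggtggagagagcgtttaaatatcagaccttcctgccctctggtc
The window of Ccl17 held TTCNNNNGAA starting 154 bases before the start and TTCNNNGAA starting 99 bases before it, without overlap. That of Ccl22 held neither. The Ccl22 window runs past the start of its GENCODE gene model at chr8:94745590, so its last bases lie inside that model. The Ccl17 window ends just before its model, so the 2 windows are not like regions. Of 32851 promoter windows of this length, 5.9% held the first pattern and 7% the second, so such matches occur in many genes. The promoter table matched 5 of the 8 members, and among these Ccl17 alone held either pattern. CAGAC, the box that SMAD proteins of the TGF-β pathway are known to bind, was held by both windows (not in capitals) and by 42.2% of all windows.

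Of the inflammatory chemokines Ccl3, Ccl4 and Ccl5, the first pair were alike and Ccl5 stood apart. Ccl3 was 159, 95.3, 115 and 116 CPM in WT1 to WT4 and 104, 247, 256 and 243 CPM in KO1 to KO4. Ccl4 was 81.3, 49.1, 81.6 and 85.4 CPM in WT1 to WT4 and 61.3, 174, 172 and 175 CPM in KO1 to KO4. For both genes KO2 to KO4 lay above every WT library and KO1 lay within the WT range. Ccl3 rose 2.15-fold in the other 5 libraries (log2 1.11, SE 0.04, edgeR adjusted p = 1.12e-14). Ccl4 rose 2.08-fold there (log2 1.05, SE 0.04, edgeR adjusted p = 6.17e-14). Among the lung-rich 3 neither passed, with log2 differences of -0.35 (interval -1.22 to 0.52) and -0.15 (interval -0.99 to 0.70).

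Over all 8 libraries Ccl3 differed by 0.81 (SE 0.30, edgeR adjusted p = 0.383) and Ccl4 by 0.97 (SE 0.35, edgeR adjusted p = 0.377) on the log2 scale. With the set as a term the differences were 0.64 (edgeR adjusted p = 0.191) and 0.67 (edgeR adjusted p = 0.112). With WT3 and WT4 also summed and KO4 left out they were 0.39 (edgeR adjusted p = 0.639) and 0.46 (edgeR adjusted p = 0.513). In the fit by group alone the call depended on KO1. Without it Ccl3 rose by 1.03 (edgeR adjusted p = 0.0156) and Ccl4 by 1.22 (edgeR adjusted p = 0.0144). With Ccl24 that made 3 members, where 6.74% of all genes passed (4.85% higher and 1.89% lower). No Tgfbr2_KO library was then lung-rich while WT1 and WT2 were, so genotype and library set are mixed in those calls. The median log2 difference in that fit was -3.37 for the epithelial and -3.03 for the endothelial markers. The effects of the lung-rich and the other libraries differed by -1.39 for Ccl3 and -1.13 for Ccl4, short of the threshold (edgeR adjusted p = 0.0597 and 0.0802). Per kb of transcript Ccl3 was 1.17 to 1.21 times Ccl4 in WT3 and WT4 and 1.20 to 1.28 times in KO2 to KO4, and 1.46 to 1.69 times in the lung-rich libraries. The ratios of the genotypes overlapped in the other 5 libraries, where neither gene's levels did. Neutrophils also make both chemokines, and their 10 markers summed to 215 and 221.3 CPM in WT3 and WT4, 145.8 to 158.8 in KO2 to KO4 and 111.4 to 118.7 in the lung-rich libraries, with none at 0 in every library. Their part in the results for Ccl3 and Ccl4 was not tested.

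Ccl5 was 8.87, 9.27, 15.2 and 18.2 CPM in WT1 to WT4 and 11.4, 11.8, 11.2 and 11.4 CPM in KO1 to KO4. The Tgfbr2_KO libraries were nearly equal, KO1 among them (99.1% of the mean of KO2 to KO4), and lay between the lung-rich and the other WT libraries. In the other 5 libraries Ccl5 fell by 0.55 on the log2 scale (SE 0.10, edgeR adjusted p = 2.31e-04), and in the lung-rich 3 the difference was 0.26 (edgeR adjusted p = 0.486). The effects differed by 0.87 (SE 0.18, edgeR adjusted p = 0.00718). Over all 8 libraries the Ccl5 difference was -0.17 (interval -0.73 to 0.39). With WT3 and WT4 summed, KO4 left out and the set as a term it was -0.17 (edgeR adjusted p = 0.684). T and NK cells, a known source of Ccl5, had 11 markers that summed to 21.7 to 36.6 CPM in the lung-rich libraries and 3.42 to 5.56 CPM in the other 5. In WT3 and WT4 the sum was 4.92 and 4.84 CPM, within the 3.42 to 5.56 CPM of KO2 to KO4, and Cd3e, the T-cell receptor subunit, was at most 0.253 CPM in the other 5. None of the 5 markers tested passed in the other 5 libraries, with 1 lower and 0 higher at an unadjusted p under 0.05. Klrb1c and Cd3g were lower there without overlap, as Ccl5 was, and the other markers of the list overlapped. Klrb1c had a mean of 1.66 CPM in WT3 and WT4 and 0.947 CPM in KO2 to KO4. For Cd3g, which was hardly detected, the means were 0.2945 and 0.131 CPM. The part of these cells in the Ccl5 result was not tested.

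The Ccr1 ligands Ccl6 and Ccl9 were low in all 3 lung-rich libraries and, in the other 5, moved in opposite directions. Ccl6 was 193, 346, 912 and 921 CPM in WT1 to WT4 and 290, 794, 741 and 788 CPM in KO1 to KO4. Ccl9 was 357, 409, 638 and 653 CPM in WT1 to WT4 and 350.5, 904, 893 and 902 CPM in KO1 to KO4. For each of these 2 genes, and for Ccl4, every lung-rich library was below every other library, which held for 23.1% of all genes. In the other 5 libraries Ccl6 fell to 84.5% of WT (log2 -0.24, SE 0.03, edgeR adjusted p = 4.16e-06). Ccl9 rose to 139% (log2 0.48, SE 0.03, edgeR adjusted p = 5.61e-11). So the neighbouring genes, 9.2 kb apart, differed in sign among these 5 libraries.

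Among the lung-rich 3 the Ccl6 difference was 0.03 (interval -0.99 to 1.06) and the Ccl9 difference -0.19 (interval -0.53 to 0.14). The effects of the lung-rich and other libraries differed for Ccl9 (-0.61, SE 0.09, edgeR adjusted p = 0.00101) and did not pass for Ccl6 (0.34, interval -0.75 to 1.43). Over all 8 libraries neither passed, at 0.14 (SE 0.56) for Ccl6 and 0.57 (SE 0.35) for Ccl9. With WT3 and WT4 summed, KO4 left out and the set as a term, neither passed. Ccl6 was then at -0.11 (edgeR adjusted p = 0.842) and Ccl9 at 0.14 (edgeR adjusted p = 0.705). Per kb of transcript Ccl9 was 0.335 and 0.340 of Ccl6 in WT3 and WT4 and 0.545 to 0.580 of it in all 4 Tgfbr2_KO libraries, KO1 included. In WT1 and WT2 that ratio was 0.886 and 0.567, so the genotypes overlapped over all 8 libraries. Ccl6 differed widely between library sets of the same genotype, with the mean of WT1 and WT2 at 29.4% of that of WT3 and WT4 and KO1 at 37.4% of the mean of KO2 to KO4. The interstitial macrophage marker sum stood at 63.5% and 45.0% in the same comparisons, and the part of cell make-up in these values was not tested.

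The windows before the RefSeq starts of Ccl6 and Ccl9 (GRCm38.p6, 250 bases) are shown because the pair is the most alike of the members for which both windows were in the table. Capitals mark runs of 10 or more bases that both windows hold.
Ccl6, chr11:83593088-83593337 (- strand): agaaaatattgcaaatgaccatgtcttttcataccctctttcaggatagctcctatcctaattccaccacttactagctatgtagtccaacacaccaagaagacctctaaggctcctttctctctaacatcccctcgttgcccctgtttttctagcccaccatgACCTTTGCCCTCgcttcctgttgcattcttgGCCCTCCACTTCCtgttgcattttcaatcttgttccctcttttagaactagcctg
Ccl9, chr11:83578637-83578886 (- strand): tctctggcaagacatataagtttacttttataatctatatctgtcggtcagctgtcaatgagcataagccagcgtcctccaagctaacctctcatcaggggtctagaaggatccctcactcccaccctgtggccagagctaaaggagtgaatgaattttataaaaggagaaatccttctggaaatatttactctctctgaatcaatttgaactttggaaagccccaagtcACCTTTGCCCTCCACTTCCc
The longest run shared by the pair was 13 bases, the longest of the 10 pairs compared. The NF-κB site was searched on both strands as GGGRNNYYCC (R for A or G, Y for C or T, N for any base). A match started 35 bases before the Ccl9 start (not in capitals) and none was found in the Ccl6 window. Of all promoter windows 7.3% held such a match.

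Levels of different genes were compared as CPM per kb of the longest coding transcript. In WT, Ccl6 had the highest mean at 411.8 ± 263 CPM per kb, followed by Ccl9 (171 ± 50.9), Ccl3 (158 ± 35.1) and Ccl4 (113 ± 25.6), and neighbours in this order overlapped. Below a gap came Ccl22 (28.2 ± 2.39), Ccl17 (27.8 ± 10.1) and Ccl5 (24.2 ± 8.57), which overlapped, and then Ccl24 at 3.79 ± 0.73, the lowest member in every WT library. In Tgfbr2_KO the same 4 genes led, at 454 ± 169 for Ccl6, 277 ± 94.7 for Ccl3, 254 ± 91.4 for Ccl9 and 220.5 ± 85.0 for Ccl4. Ccl24 came next at 32.0 ± 13.6 CPM per kb, overlapping with Ccl22 at 29.4 ± 6.33, and Ccl17 was last at 18.4 ± 5.47. Per kb, Ccl24 was 0.102 to 0.229 of Ccl17 in the WT libraries and 1.12 to 2.30 times it in the Tgfbr2_KO libraries. Ccl24 was thus below Ccl17 per kb in all 4 WT libraries and above it in all 4 Tgfbr2_KO libraries. The 4 abundant genes were separated from the other 4 in either genotype. Within the other 5 libraries alone, no neighbours overlapped in WT, and Ccl24 with Ccl22 and Ccl5 with Ccl17 did in Tgfbr2_KO.

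**Figure D3:**
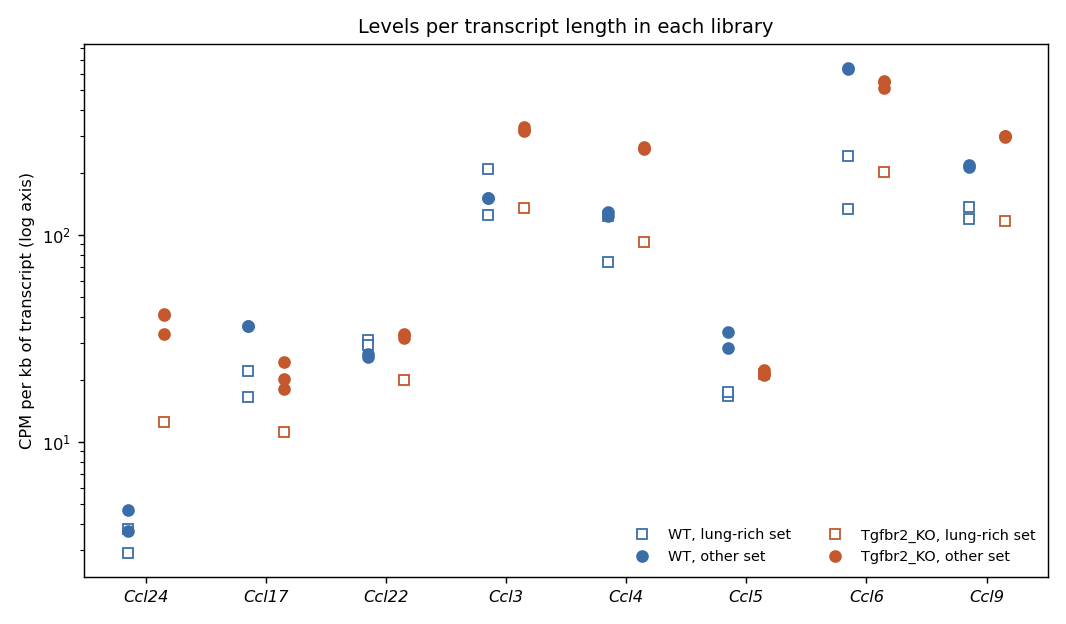
CPM per kb of the longest coding transcript (log axis) of each gene in every library, WT in blue and Tgfbr2_KO in orange, open squares for lung-rich libraries and filled circles for the other 5. Ccl6, Ccl9, Ccl3 and Ccl4 are at 74.4 CPM per kb or more in every library, and Ccl24 is at 2.92 to 4.71 in WT and 12.5 to 41.6 in Tgfbr2_KO.

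To set the members against the macrophage content of each library, CPM were also divided by the sum of the 11 interstitial macrophage markers, a choice made after the values were seen. Ccl24 was 0.202 to 0.335 per 1000 marker CPM in WT and 1.61 to 2.42 in Tgfbr2_KO. KO1 then came to 72.0% of the mean of KO2 to KO4 for Ccl24. On that scale 4 genes had groups without overlap: Ccl24, Ccl4 (3.08 to 5.55 in WT, 6.13 to 7.89 in Tgfbr2_KO) and Ccl9 (24.4 to 26.8 and 35.0 to 41.0) were higher, and Ccl17 (0.581 to 0.783 and 0.418 to 0.575) was lower. Of all genes 3.91% were higher and 0.871% lower without overlap on this scale. Ccl3, Ccl22, Ccl5 and Ccl6 overlapped. WT1, with 10.9 for Ccl3, lay in the Tgfbr2_KO range of 10.4 to 11.4.

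A fit with libraries scaled to these markers gave Ccl24 a log2 difference of 3.03 (edgeR adjusted p = 0.00633) and no other member passed, where 0.204% of all genes did (0.196% higher and 0.00784% lower). With the set as a further term Ccl24, Ccl3, Ccl4 and Ccl9 rose and Ccl17 fell, against 31.8% of all genes (30.5% higher and 1.3% lower). That scaling moved the median of all genes to 0.17, and to 0.32 with the set, and relative to the latter Ccl9 (0.56) and Ccl3 (0.91) were higher and Ccl17 (-0.51) lower. The markers are not neutral between genotypes: with the set as a term Maf, Mrc1 and Pf4 rose, and Apoe, Cx3cr1 and Ms4a7 were among those that fell.

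**Figure D4:**
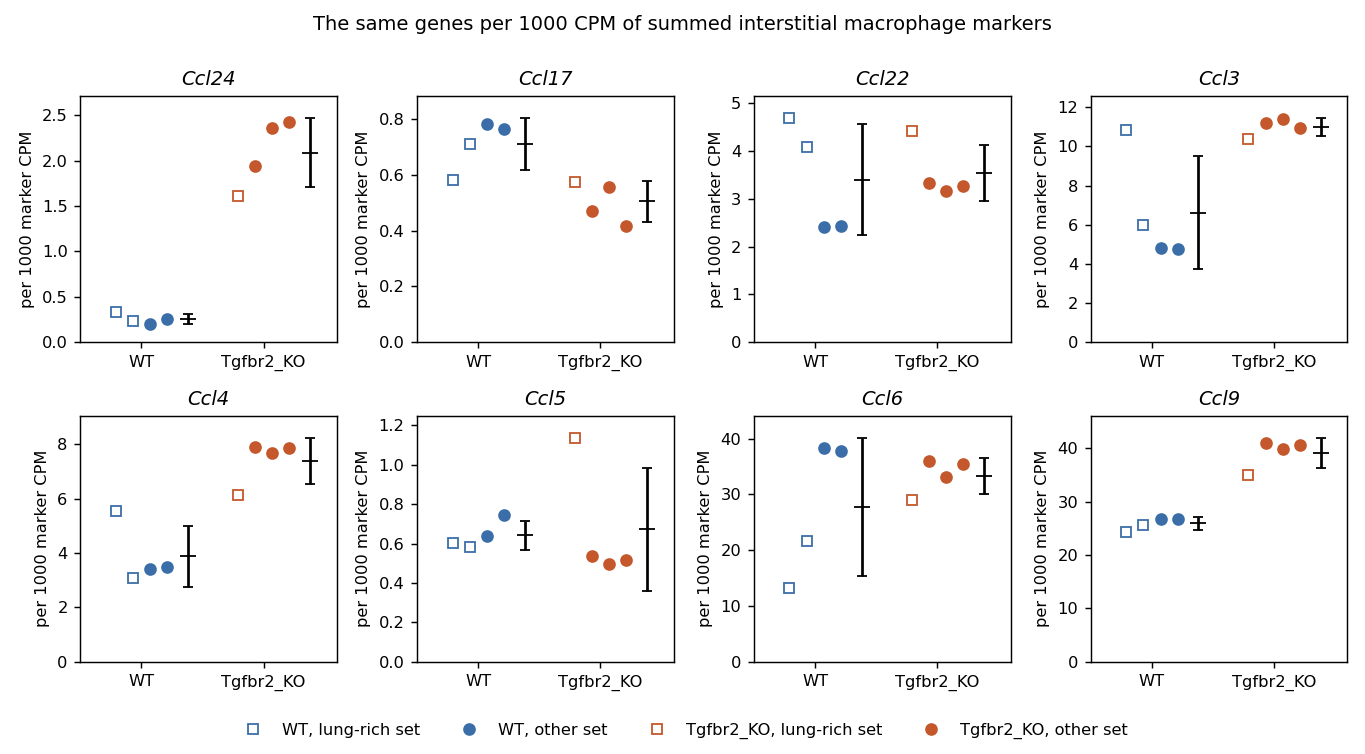
Each gene per 1000 CPM of summed interstitial macrophage markers (vertical axes, from 0) in each library, WT in blue and Tgfbr2_KO in orange, open squares for lung-rich libraries, filled circles for the other 5, and bars for the mean ± SD of 4 libraries. For Ccl24, Ccl4 and Ccl9 all Tgfbr2_KO points are above all WT points, for Ccl17 all are below, and for the other 4 genes the points overlap.

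Other ligands of the family were read from a list of 13, of which 7 passed the filter and Ccl1 and Ccl26 were at 0 in every library. None passed over all 8 libraries by edgeR (3 at an unadjusted p under 0.05, all higher), where DESeq2 called 3 of the 7 higher and 4.13% of all genes (2.72% higher and 1.41% lower). With the set as a term 4 rose (Ccl2, Ccl7, Ccl12 and Ccl8) and none fell, and in the other 5 libraries Ccl2, Ccl7 and Ccl12 rose. The monocyte chemokine Ccl2 was 336, 233, 227 and 244 CPM in WT1 to WT4 and 468, 1216, 1124 and 1140 CPM in KO1 to KO4 (log2 1.77 with the set, edgeR adjusted p = 0.0104). Ccl7, a second ligand of the monocyte receptor Ccr2, was 125 to 198 CPM in WT and 307 to 856 CPM in Tgfbr2_KO (log2 1.73 with the set, edgeR adjusted p = 0.00325). Like Ccl24, both genes had no overlap between the genotypes and KO1 as the lowest Tgfbr2_KO library. With WT3 and WT4 summed and KO4 left out none of the list passed, with edgeR adjusted p = 0.14 for Ccl2 and 0.0736 for Ccl7 and 4 of 9 tested higher at an unadjusted p under 0.05. The list's median log2 difference over the 7 was 0.35 with the set as a term, beside 0.03 over all genes.

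Receptors of these chemokines were measured in the same bulk libraries, which do not show which cells held their RNA. Ccr3, the Ccl24 receptor, was 0.532 to 1.18 CPM in WT and 0.860 to 2.29 CPM in Tgfbr2_KO. Ccr4, the receptor of Ccl17 and Ccl22, was at most 0.661 CPM (KO1), and at or below 0.0833 CPM in the other 5 libraries. Ccr1, a receptor of Ccl3, Ccl5, Ccl6 and Ccl9, was well detected at 57.4 to 152 CPM. Of 15 CC receptors 8 were tested, and over all 8 libraries none passed by edgeR, by DESeq2 or at an unadjusted p under 0.05. With the set as a term none rose, and those that fell included Ccr1, by 0.29 (edgeR adjusted p = 0.00421), and Ccr2, the receptor of inflammatory monocytes, by 0.54 (edgeR adjusted p = 0.0303) on the log2 scale. These calls were lost with WT3 and WT4 summed and KO4 left out (edgeR adjusted p = 0.0953 for Ccr1 and 0.156 for Ccr2). Ccrl2, a receptor of the list that does not signal like the others, was 454.5 to 1095 CPM, with KO1 the lowest.

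Genes tied to interleukin-4 and its factor STAT6 formed a list of 20, of which 19 were tested. None passed over all 8 libraries by edgeR (6 higher and 2 lower at an unadjusted p under 0.05), where DESeq2 called 5 higher and 1 lower. By edgeR 6 rose and 3 fell with the set as a term, where 8.59% of all genes rose and 7.89% fell. In the other 5 libraries 9 rose and 6 fell, where 19.7% of all genes rose and 18.7% fell. In the lung-rich 3 the median log2 difference of the list was 0.02. With the set as a term Retnla, a secreted product of such macrophages, rose by 1.78 (edgeR adjusted p = 3.18e-04). The lectin genes Clec10a (log2 1.77, edgeR adjusted p = 4.30e-04) and Mgl2 (log2 1.30, edgeR adjusted p = 0.00148) rose with it in that fit. In the same fit Il13ra1, a receptor chain of interleukin-13, fell by 0.27 (edgeR adjusted p = 0.01). Arg1 (arginase) and Chil3 (a chitinase-like protein), which are also known to respond to interleukin-4, fell as well. Among the lung-rich 3, KO1 was above WT1 and WT2 for Retnla (251.7 against 106.8 and 89.9 CPM), Clec10a (104.2 against 38.7 and 44.5 CPM) and Mgl2 (605.8 against 348.0 and 356.2 CPM). It was below both for Il13ra1 (70.5 against 92.2 and 89.6 CPM) and Arg1 (0.36 against 0.59 and 1.14 CPM). Chil3 was 348.3 and 347.4 CPM in WT3 and WT4, 17.5 and 30.0 CPM in WT1 and WT2 and 15.8 to 20.4 CPM in Tgfbr2_KO, so its fall came from WT3 and WT4 and it did not pass in the lung-rich 3 (log2 -0.30, edgeR adjusted p = 0.695). With WT3 and WT4 summed and KO4 left out, Retnla and Clec10a passed and the other 17 did not. Alox15, a lipoxygenase, was 0.439 to 2.62 CPM in WT and 0.959, 16.7, 79.4 and 50.0 CPM in KO1 to KO4 (log2 3.75 with the set as a term, edgeR adjusted p = 0.0262). KO1 was inside the WT range for Alox15, unlike for Ccl24. The median over the 19 was 0.14 with the set as a term, beside 0.03 over all genes.

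Ccl3 and Ccl4 are known targets of NF-κB and are induced early after cell handling or stimulation, so lists of both kinds were counted. Of 17 genes of NF-κB and acute cytokines none passed over all 8 libraries by edgeR (4 at an unadjusted p under 0.05, DESeq2 1, all higher), 1 rose with the set as a term (Rela, log2 0.32, edgeR adjusted p = 0.0488), and 11 rose and 1 fell (Il1b) in the other 5 libraries. In the lung-rich 3 none rose and 3 fell (Ptgs2, Tnf and Tnfaip3), with 10 of 17 lower at an unadjusted p under 0.05 and a median log2 difference of -0.39. The neutrophil chemokine Cxcl2 (log2 0.85, edgeR adjusted p = 7.34e-15) and the cytokine Il6 (log2 0.64, edgeR adjusted p = 2.16e-07) rose in the other 5, while in the lung-rich 3 Cxcl2 was 1032 CPM in KO1 against 1176 and 1241 CPM in WT1 and WT2. Of 19 immediate-early genes none passed over all 8 by edgeR (4 at an unadjusted p under 0.05, all higher), where DESeq2 called 2 higher and 1 lower. By edgeR 7 rose with the set, where 8.59% of all genes rose and 7.89% fell. In the other 5 libraries 16 rose and 2 fell (Fos and Fosb), where 19.7% of all genes rose and 18.7% fell. These shares also stand beside the NF-κB counts above. In the lung-rich 3, 1 rose (Klf2) and 2 fell (Hspa1a and Hspa1b), with a median of -0.07. Egr1, a transcription factor of that list, was 477 and 485.5 CPM in WT4 and WT3, 908 to 968 CPM in KO2 to KO4 and 1077 to 1534 CPM in the lung-rich libraries. With WT3 and WT4 summed and KO4 left out none of either list passed by edgeR (7 immediate-early genes higher and 1 NF-κB gene lower at an unadjusted p under 0.05). In the other 5 libraries 16 of the 19 immediate-early genes rose, as Ccl3 and Ccl4 did, and 2 fell. The part of the immediate-early genes in the Ccl3 and Ccl4 results was not tested.

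Patterns most like those of each member were sought over the 12750 tested genes as the smallest root mean square difference of log2 CPM, centred on each gene's mean, over the 8 libraries, which share depth and cell make-up. For Ccl24 they were Mucl1 (0.27), the lysozyme gene Lyz1 (0.28), F13a1, which encodes a subunit of coagulation factor XIII (0.35), Trim30c (0.35) and Slc7a13 (0.40). Lyz1 was 138 to 174 CPM in WT and 758.5, 1758, 1696 and 1706 CPM in KO1 to KO4, and F13a1 was 170 to 249 CPM in WT and 485 to 1404 CPM in Tgfbr2_KO. In each of these 5 genes KO1 was the lowest Tgfbr2_KO library and stood above all WT libraries. That is also the Ccl24 pattern by which they were picked, so it is no separate result. Slc7a13 was hardly detected in WT, at 0 to 0.0878 CPM. The closest to Ccl17 were Igsf8 (0.11) and Tnfaip2 (0.12), and to Ccl22 Nfkbid, an NF-κB inhibitor (0.07), and Sqstm1 (0.08). For Ccl3 they were Slc11a2 (0.16) and the transcription factor gene Etv3 (0.16), and for Ccl4 the mannose receptor gene Mrc1 (0.17) and Etv3 (0.17). Ccl5 was closest to Nlrc5, an activator of MHC class I genes (0.09), and the immunoproteasome gene Psmb8 (0.11). Ccl6 was closest to the Fc receptor gene Fcgr2b (0.22) and the cathepsin gene Ctsk (0.24), and Ccl9 to Aoah (0.07) and the transcription factor gene Batf3 (0.08).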

How the data were processed

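Bulk RNA-seq of sorted lung macrophages was analysed in 8 libraries, 4 per genotype, grouped by their titles. The authors deposited 1 merged table of estimated counts from salmon, with no scaling to library size seen in the values. Per the labels' protocols, TRIzol RNA went into a stranded mRNA kit. Per the submitters' processing notes the build was GRCm38 and DESeq2 1.40.1 was used. No source used here gives the salmon version, strand setting or annotation. Between 81.8% and 84.8% of a library's values were whole, as were all 64 values of the members (tolerance 1e-05). The members had 83 to 32741 counts per library, the fewest for Ccl24 in WT, where counting error is largest.

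Rounded counts were fitted with edgeR 4.0.16 in R 4.3.3: filterByExpr (minimum count 10, minimum total 15), TMM scaling, and the robust quasi-likelihood F-test with group only, adjusted by Benjamini-Hochberg over all genes tested with a threshold of 0.05. CPM are TMM-scaled, and intervals are at 95%. Alternatives were other scalings (DESeq2 size factors, library totals), no filter, DESeq2 1.42.0, the library set as a term, each set alone, summed libraries, the replicate number as a block, and each library left out. The script was tested on simulated data. Gene models were GENCODE M21 and promoter windows RefSeq GRCm38.p6.

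Named genes were the 8 members, Tgfbr2 and Lyz2, up to 4 genes per pathway list with the smallest adjusted p in the fit with group only and up to 4 in that with the set, up to 3 leading markers per cell type, and the 5 (Ccl24) or 2 patterns closest to each member, predicted genes passed over. Arg1, Chil3, Ccr4, Ccrl2, Fos, Fosb, Il1b, Ptgs2, Tnf, Tnfaip3, Klf2, Hspa1a, Hspa1b, Ccl1, Ccl26, Clec9a, Cd209a, Zbtb46, Batf3, Cd3e and Epx, and the markers named as risen or fallen, were chosen after their values were seen. So were Klrb1c and Cd3g. Lists were other CC ligands, CC receptors, IL-4 and STAT6, NF-κB and acute cytokines, immediate-early genes, and markers of interstitial and alveolar macrophages, dendritic cells, T and NK cells, B cells (10.9 to 16.3 CPM in the other 5 libraries and 31.4 to 54.5 CPM in the lung-rich 3), neutrophils, monocytes, eosinophils with basophils and mast cells, epithelium, endothelium and fibroblasts. The members and lists were chosen with earlier results of these data known. Some genes of the lists and 1 sequence are not reported here.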

Additional observations from a re-analysis of the deposited data

Results flagged for a closer look

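A library far from the rest of its group was found in 6 of the 16 groups of 4 that were looked at, by the gap to the nearest library as a share of the group's range against the critical value of a Dixon test, and chance gives about 1 in 20 groups. KO1 was far below the other Tgfbr2_KO libraries for Ccl22 (44.3 CPM), Ccl3 (103.9 CPM), Ccl4 (61.3 CPM), Ccl6 (289.6 CPM) and Ccl9 (350.5 CPM). These 5 share 1 library and are not separate observations. WT2 was far below the other WT libraries for Ccl4 (49.1 CPM).

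The effect of genotype differed between the lung-rich and the other libraries in the edgeR interaction test for 4 members, with log2 differences (lung-rich minus other) of -1.24 for Ccl24, -0.91 for Ccl22, 0.87 for Ccl5 and -0.61 for Ccl9. The lung-rich set holds 1 Tgfbr2_KO library, so the genotype effect there and a property of KO1 cannot be told apart. Over all genes 18.9% passed the same test.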

How the results depend on the processing

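Ccl24 was higher in Tgfbr2_KO under all 19 alternatives (log2 1.84 to 3.34). It passed under 11 and did not pass with the replicate block (2.97, edgeR adjusted p = 0.15) or with any 1 library other than KO1 left out, so that the range over left-out libraries was 2.93 to 3.34. The count of members was 1 higher and 0 lower in the fit by group, and 1 lower was added with the set as a term or in the lung-rich libraries. It was 5 higher and 3 lower in the other 5 libraries, 4 and 1 with marker scaling and the set (chosen after seeing the data), 0 higher with the block, and 0 to 3 higher with 0 lower with a library left out. Of all genes 25 were higher and 13 lower. The counts became 53 and 28 with library totals, 347 and 180 with DESeq2, 1095 and 1006 with the set as a term, 2493 and 2363 in the other 5, 443 and 273 in the lung-rich 3, 70 and 115 with summed libraries, 25 and 1 with marker scaling, 3885 and 166 with that and the set, 0 and 0 with the block (1479 at an unadjusted p under 0.05), and 0 to 619 higher and 0 to 241 lower with a library left out. Calls were made in the last case only without KO1, where genotype is mixed with library set. The other fits with a library left out had 807 to 1451 genes at an unadjusted p under 0.05.

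Signs turned for members that did not pass over all 8 libraries. Ccl22 became -0.0005 with the set, -0.66 in the lung-rich 3, -0.17 with summed libraries and -0.0024 without KO2, within a range of -0.0024 to 0.21 over left-out libraries. Ccl3 became -0.35, Ccl4 -0.15 and Ccl9 -0.19 in the lung-rich 3. Ccl5 became 0.26 there, 0.041 without WT4 (range -0.31 to 0.041), 0.063 with marker scaling and 0.070 with that and the set. Ccl6 became -0.12 with the set, -0.24 in the other 5, -0.11 with summed libraries, -0.15 without WT1 and -0.05 without WT2 (range -0.15 to 0.44). The cause was not tested. The labels share replicate numbers between genotypes, and deviations of same-numbered libraries from their genotype means correlated at 0.867, -0.794, 0.694 and 0.753. Library set was not removed, and the signs followed it. WT1 and WT2 correlated positively with KO1 and negatively with KO2 to KO4, and WT3 and WT4 did the reverse. The correlations therefore cannot tell whether the numbers pair the samples.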
